A study of Homo sapiens with 12 samples.

Results

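Nobiletin at 5 µM was added to HepG2 cells that also received sorafenib at 2 µM (SOR+NOB), and these cells were compared with cells that received sorafenib alone at 2 µM (SOR). The comparison uses 6 of the 12 libraries of the series, 3 in each group, chosen by their sample labels, and covers all 58735 genes of the count table, of which 17115 had enough counts to be tested. The other 6 libraries are vehicle-treated cells (Control) and cells with nobiletin alone at 5 µM (NOB), 3 each, and serve to show what nobiletin did without sorafenib. HepG2 is an established human liver cancer line that keeps much of the gene expression of hepatocytes, and all groups are this 1 line. RNA was sequenced in bulk, and the labels do not say how long the cells were exposed.

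Sorafenib is an oral kinase inhibitor used against liver cancer. It blocks RAF kinases, which relay growth signals to MEK and ERK, and receptor kinases of the VEGF and PDGF families. Nobiletin is a flavone of citrus peel that carries several methoxy groups, and it has been described as a ligand of the clock receptor RORA. Hepatocytes and lines derived from them make plasma proteins, cholesterol and bile acids, and bind metal ions with metallothioneins.

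Libraries held 17945656 to 25669823 counts. SOR+NOB replicate 1 was the least like its group. It had the fewest genes with a count, 20138, a number that depends on depth, and it also had the fewest counts of the 12 libraries, 17945656. Against replicates 2 and 3 its chi-square over degrees of freedom was 27.9 and 19.4, where other pairs within a group gave 2.78 to 5.60. Summed levels of 12 hepatocyte markers, among them ALB, AFP and HNF4A, were 72300 to 75100 CPM (counts relative to the total of the library after TMM scaling) in SOR and 30900 to 35200 CPM in SOR+NOB. Of the markers of other cells, 3 of 6 fibroblast genes, 1 of 4 endothelial genes and 2 of 4 blood genes had no count in the 6 libraries. The fibroblast sum was 3.84 to 4.21 CPM in SOR and 2.13 to 2.91 CPM in SOR+NOB, the endothelial sum 12.8 to 17.1 and 5.36 to 7.47 CPM, and the blood sum 0.125 to 0.277 and 0 to 0.0905 CPM. Nothing in the labels says that the libraries of a group came from separate cultures, so p-values measure the spread between these libraries, which may be technical. In bulk RNA, fewer cells of a type and less RNA per cell cannot be told apart. Levels below are CPM scaled by TMM, given as mean ± SD (n = 3) or for every library in replicate order. Differences are log2 fold changes (log2FC) ± SE of SOR+NOB against SOR, and a gene is called where edgeR's quasi-likelihood test gave a Benjamini-Hochberg adjusted p under 0.05 over all tested genes.

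Adding nobiletin to sorafenib changed most of the measured transcriptome. More genes rose than fell among metallothioneins, immediate early genes, chaperones, proteasome subunits and genes of DNA replication. More fell than rose among mitochondrial mRNAs, cholesterol synthesis genes, plasma proteins and hepatic uptake transporters. Of the 17115 genes tested, 10785 were called (63.0%), 5382 higher in SOR+NOB (31.4%) and 5403 lower (31.6%). At least 2-fold differences were called in 1748 genes that rose (10.2%) and 2656 that fell (15.5%). The CPM of the 3 and 3 libraries did not overlap in 10834 genes (63.3%). The median log2FC of all tested genes was -0.01, with quartiles of -0.67 and 0.52, and each list below is to be read against these background shares. TMM scaling presumes that most genes are unchanged, so this median and the balance of directions follow in part from the scaling. A change in total RNA per cell would not be seen in these values.

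Nobiletin without sorafenib changed fewer genes. NOB differed from Control in 6536 of the same 17115 genes (38.2%), 3243 higher (18.9%) and 3293 lower (19.2%), and the SD of log2FC over genes was 0.698, against 1.275 with sorafenib. These comparisons share no library. Over the 17115 genes (genes are no independent replicates) their log2FC had a Pearson r of 0.12 and a Spearman rho of 0.14. Both comparisons called 1533 genes higher, which is 28.5% of those higher with sorafenib and 47.3% of those higher without it. Both called 1510 lower, 27.9% and 45.9% of the lists. In opposite directions, 958 genes were higher with sorafenib and lower without it, which is 17.8% of those higher with sorafenib. Among all tested genes 19.2% were lower without it. A further 860 were lower with sorafenib and higher without it, which is 15.9% of those lower with sorafenib, beside 18.9% among all tested genes. The interaction, which tests the nobiletin effect with sorafenib minus that without, was called in 8908 genes (52.0%), 4298 positive (25.1%) and 4610 negative (26.9%).

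**Figure D1:**
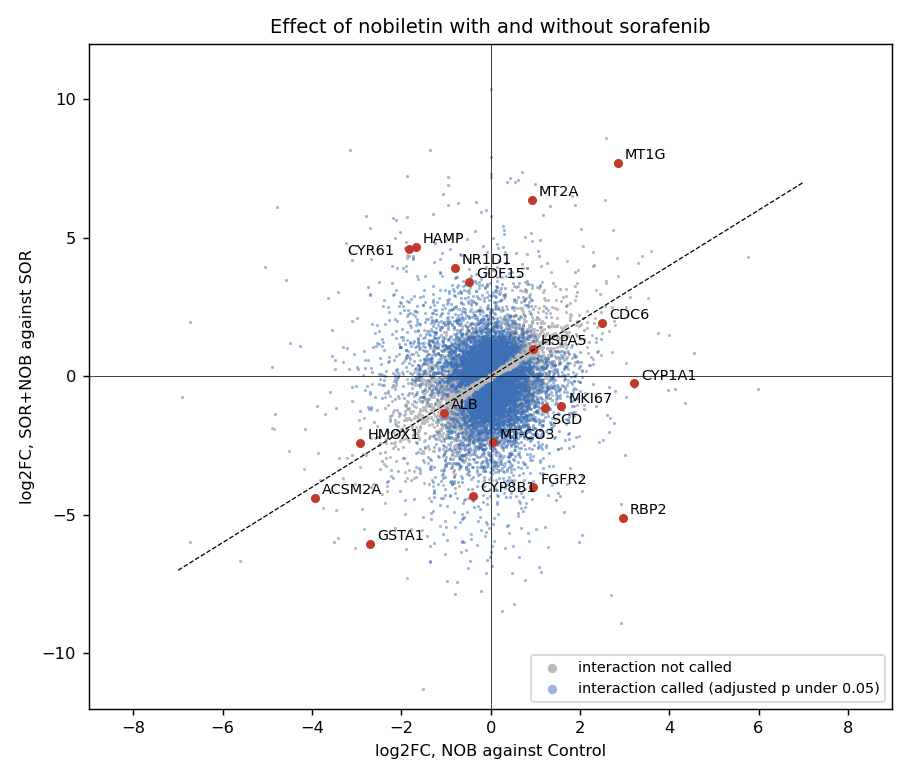
Each point is 1 of 17115 genes, with the log2FC of nobiletin without sorafenib (NOB against Control, x axis) and with it (SOR+NOB against SOR, y axis); blue genes have a called interaction, the dashed line marks equal effects and red points are genes described in the text. HSPA5 lies on the line, MT2A, HAMP and CYR61 lie far above it, and RBP2 and FGFR2 far below it.

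The metal response held several of the largest rises. Metallothioneins are small cysteine-rich proteins that bind zinc and copper, and zinc is known to switch their genes on through the factor MTF1, which binds short metal response elements. MT2A (ENSG00000125148, chromosome 16, 56608199 to 56609497 on GRCh38) was at 7.11, 5.66 and 7.26 CPM in SOR and at 548, 546 and 591 CPM in SOR+NOB. All SOR+NOB libraries lay far above the SOR libraries (log2FC 6.38 ± 0.09, edgeR adjusted p = 1.35e-22), while Control averaged 31.7 CPM and NOB 60.04 CPM. MT1G was at 1.38, 1.17 and 1.57 CPM in SOR and at 299.5, 284 and 293 CPM in SOR+NOB, again without overlap (log2FC 7.72 ± 0.13). MT1X rose by 7.39, MT1E by 6.96 and MT1F by 3.27 on the log2 scale, and the zinc exporter SLC30A1 rose from 108 ± 2.45 to 191 ± 10.0 CPM.

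In the list of metallothioneins and zinc transporters, 10 of 18 tested members rose, 5 fell and 3 were not called, with a median log2FC of 1.53. The zinc transporter SLC30A2 had 0 counts in the 3 SOR libraries together and 498 in SOR+NOB, at least 161-fold higher against a floor of 3 counts over the group. MT1M went likewise from 0 to 141 counts, at least 45.6-fold higher. The 5 members that fell are SLC30A10, a manganese exporter (-2.79), and the importers SLC39A5 (-0.94), SLC39A4 (-0.75), SLC39A14 (-0.63) and SLC39A10 (-0.32). The MT1 genes are close copies of each other and the handling of reads that map to several of them is not given in the sources used here, so the split among MT1 members is uncertain. Without sorafenib, nobiletin raised MT1G by 2.84 and MT2A by 0.92 on the log2 scale, and the interaction was called for both (4.88 ± 0.32 and 5.46 ± 0.12).

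The promoters of MT2A and MT1X are shown because both genes are among the largest rises and carry the elements by which this family is known to respond to metals. The 250 bases before the RefSeq start (GRCh38.p14) are printed 5′ to 3′ on the strand of the gene, with every match to TGCGCNC or TGCACNC, on either strand, in capitals.
MT2A (chr16:56608334-56608583, + strand): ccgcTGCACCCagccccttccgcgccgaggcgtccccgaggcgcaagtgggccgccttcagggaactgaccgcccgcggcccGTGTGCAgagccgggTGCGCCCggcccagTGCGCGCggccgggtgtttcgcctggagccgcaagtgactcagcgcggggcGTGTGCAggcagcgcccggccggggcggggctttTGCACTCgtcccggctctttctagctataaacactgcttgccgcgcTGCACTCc
MT1X (chr16:56682220-56682469, + strand): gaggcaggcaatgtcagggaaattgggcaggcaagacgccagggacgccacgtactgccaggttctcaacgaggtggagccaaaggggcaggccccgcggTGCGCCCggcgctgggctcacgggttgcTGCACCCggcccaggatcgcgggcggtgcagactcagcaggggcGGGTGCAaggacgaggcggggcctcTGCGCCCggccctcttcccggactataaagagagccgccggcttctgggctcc
The MT2A window held 7 matches and that of MT1X held 4. Of the 12 listed genes with a RefSeq promoter, 6 had a match, against 24.7% of 27305 promoters, and a match describes letters, not a bound site.

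Iron handling genes did not move as a block, but the gene of their hormone did. HAMP encodes hepcidin, which blocks iron export from cells, and is known to respond to BMP signals and to IL6. It was at 4.68, 4.22 and 4.27 CPM in SOR and at 94.0, 130.1 and 114 CPM in SOR+NOB (log2FC 4.68 ± 0.13, edgeR adjusted p = 3.88e-18). The SOR+NOB libraries did not overlap the SOR libraries, and without sorafenib nobiletin moved HAMP the other way, from 4.02 to 1.252 CPM on average. The BMP targets SMAD7 (2.17) and ID1 (1.29) rose, and TMPRSS6, a protease that restrains hepcidin, fell (-2.9985). The heme-degrading enzyme HMOX1 fell from 36.0 ± 0.971 to 6.83 ± 1.10 CPM, and it fell in NOB against Control too (-2.92). In the whole list of iron and heme genes 7 of 27 rose and 10 fell, with a median of -0.06 that was -0.035 without SOR+NOB replicate 2.

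Other genes among the 12 largest rises have varied roles. HRH3, a histamine receptor, had 2 counts in SOR and 710 in SOR+NOB, a ratio of 344 with a 95% counting interval of 94.9 to 2850. PCLO, a scaffold of presynaptic sites, rose by 6.28, the protocadherin PCDH1 by 5.82, the ERK phosphatase DUSP5 by 5.13 and the ubiquitin ligase gene NEURL3 by 5.12 on the log2 scale. CYR61, a secreted matrix protein and YAP target, rose from 5.03 ± 0.645 to 120.0 ± 12.6 CPM, and the protease CAPN5 from 2.40 ± 0.125 to 49.1 ± 3.31 CPM. Chosen after their values were seen, GADD45G went from 0 to 107 counts, at least 34.6-fold higher, and the chemokine CXCL3 from 0 to 91, at least 29.4-fold higher, though DESeq2 did not call CXCL3 (adjusted p = 0.154).

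**Figure D2:**
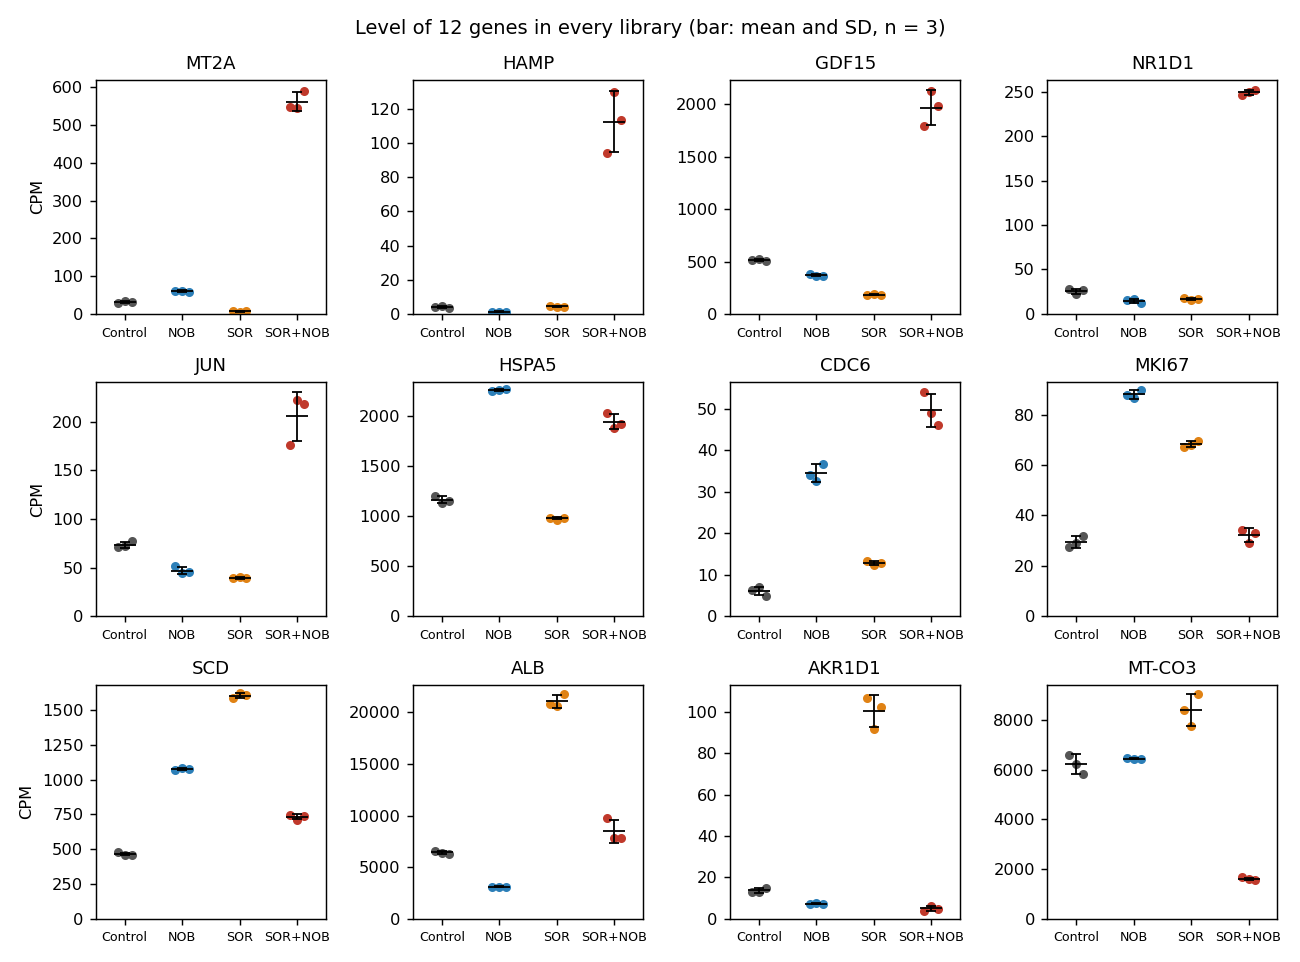
CPM of 12 genes in every library (points) with mean and SD (bars, n = 3) in Control, NOB, SOR and SOR+NOB; each y axis starts at 0. MT2A, HAMP, GDF15 and NR1D1 are high in SOR+NOB alone, HSPA5 is high in NOB and SOR+NOB, and SCD and MKI67 are higher in NOB than in Control but lower in SOR+NOB than in SOR.

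Genes that report growth signalling were mostly higher in SOR+NOB than in SOR. ERK is known to induce its own inhibitors of the DUSP and SPRY families along with transcription factors, so their mRNA is commonly read as ERK output. Of 19 tested ERK output genes 13 rose and 3 fell, with a median log2FC of 0.27, against -0.19 for nobiletin without sorafenib. The median was 0.83 with DESeq2 and 0.82 without a filter, over 21 genes each, and 0.55 over 18 genes in a fit of the 6 libraries alone. EGR1, a rapidly induced transcription factor, was at 33.5, 30.7 and 31.0 CPM in SOR and at 104, 120.4 and 128 CPM in SOR+NOB (log2FC 1.89 ± 0.08, edgeR adjusted p = 2.71e-15). MYC rose from 186 ± 8.84 to 655 ± 19.6 CPM, and its lowest SOR+NOB library, at 633 CPM, lay above the highest SOR library, at 192 CPM. The feedback inhibitor SPRY4 rose by 1.63, the receptor kinase EPHA2 by 1.44 and cyclin D1, CCND1, by 0.27 on the log2 scale. DUSP6, the phosphatase most specific for ERK, rose slightly, from 30.3 ± 0.483 to 35.5 ± 1.69 CPM, where Control had 114 CPM and NOB 179 CPM, and was not called in a fit of the 6 libraries alone (edgeR adjusted p = 0.0538). The members that fell are SPRY2 (-0.51), SPRED2 (-0.46) and ETV4 (-0.38).

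AP-1 and other immediate early genes followed. JUN, a subunit of AP-1, was at 38.9, 40.6 and 39.3 CPM in SOR and at 176, 222 and 218 CPM in SOR+NOB (log2FC 2.38 ± 0.08). The groups did not overlap, and 9 of 15 tested members of this list rose and 3 fell, with a median of 1.40 against -0.50 in NOB against Control. ATF3 (2.06), KLF10 (2.59), KLF6 (1.40) and FOSL2 (1.86) rose, and IER2 (-1.19), BTG2 (-0.83) and JUND (-0.41) fell. KLF6 had fallen by 1.63 with nobiletin alone, and its interaction was 3.03 ± 0.08.

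Receptors at the head of these pathways were lower. Of 14 tested growth factor receptors and RAF kinases 11 fell and 1, ARAF, rose (0.61), with a median of -0.76. FGFR2, a receptor for fibroblast growth factors, fell from 18.2 ± 0.141 to 1.14 ± 0.341 CPM (log2FC -4.00 ± 0.20). ERBB3 (-1.27), ERBB2 (-1.26), EGFR (-1.20) and FGFR1 (-1.03) also fell. VEGFA, the main ligand of the VEGF receptors, fell from 282 ± 4.19 to 193 ± 23.4 CPM (-0.55), and the hypoxia list split evenly, with 5 of 14 members higher, among them the glucose transporter SLC2A1 (2.14), and 5 lower, among them ANGPTL4 (-3.25). The YAP and TEAD list split too, with 5 of 12 higher and 6 lower: CYR61 (4.58), AXL (2.46) and ANKRD1 (2.09) rose, and AJUBA (-2.02), ARHGEF17 (-1.53) and CTGF (-1.01) fell.

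Cell cycle genes divided by phase. Most genes that copy DNA rose, and among genes that separate chromosomes more fell than rose. Of 34 tested DNA replication genes 26 rose and 4 fell, with a median log2FC of 0.66, while of 30 tested mitosis genes 3 rose, 14 fell and 13 were not called, with a median of -0.13. Without SOR+NOB replicate 3 the mitosis median was -0.22. CDC6, which loads the MCM helicase on origins, was at 13.4, 12.4 and 12.9 CPM in SOR and at 54.0, 48.9 and 46.1 CPM in SOR+NOB (log2FC 1.94 ± 0.10, edgeR adjusted p = 3.44e-13). CDC45 (2.23), a part of the active helicase, thymidine kinase TK1 (1.83), MCM4 (1.05) and MCM5 (1.03) rose as well, without overlap between the groups in CDC45 or MCM5. GINS1 (-0.87), TYMS (-0.53) and PCNA (-0.15) fell, of which PCNA lost its call without SOR replicate 3 or SOR+NOB replicate 2 (edgeR adjusted p = 0.118 and 0.164).

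MKI67, the proliferation marker, was at 67.1, 68.1 and 69.6 CPM in SOR and at 34.2, 29.2 and 33.2 CPM in SOR+NOB (log2FC -1.09 ± 0.07). Every SOR+NOB library lay below every SOR library, as for cyclin B1, CCNB1 (-1.31), the mitotic kinase AURKA (-1.16) and the kinesin KIF20A (-1.76). TTK (0.60), MAD2L1 (0.26) and TPX2 (0.18) were the mitosis genes that rose, but MAD2L1 and TPX2 were not called under 9 other settings each, among them without SOR+NOB replicate 1 (edgeR adjusted p = 0.155 and 0.141). Without sorafenib nobiletin raised 33 of the 34 replication genes (median 0.96) and 29 of the 30 mitosis genes (median 1.41). The interaction was called negative in 28 mitosis genes and positive in none, for MKI67 with -2.66 ± 0.10, and in replication genes it was negative in 17 and positive in 6. MKI67 averaged 29.5 CPM in Control and 32.2 CPM in SOR+NOB.

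**Figure D3:**
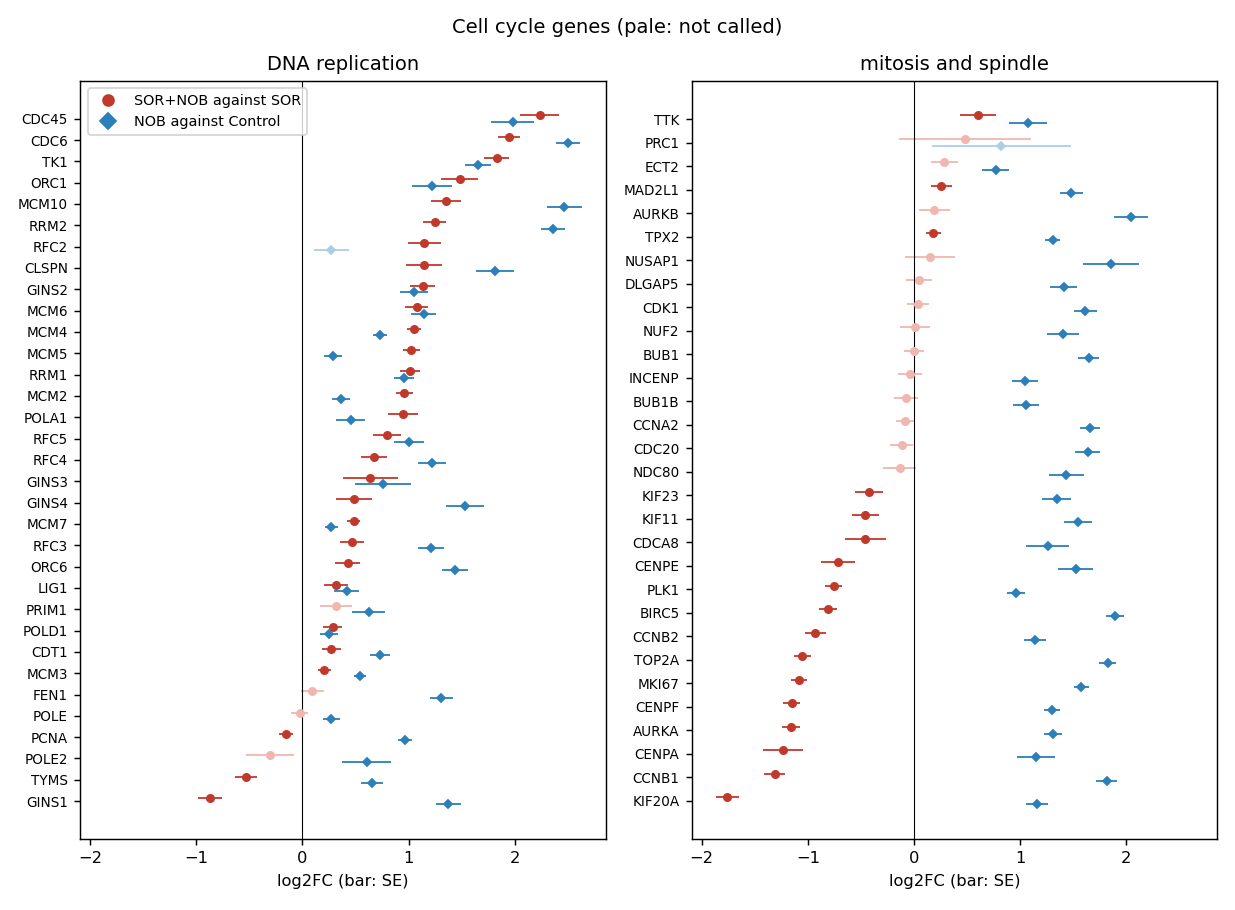
log2FC (points, bars ± SE) of DNA replication genes reported here (left) and the tested mitosis genes (right) for SOR+NOB against SOR (red circles) and NOB against Control (blue diamonds), with pale symbols for genes not called. Blue symbols lie to the right of 0 in both panels, whereas red symbols lie mostly to the right in the replication panel and on both sides of 0 in the mitosis panel, where TTK, MAD2L1 and TPX2 are the called genes to the right.

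The promoter of MCM6, a helicase subunit that rose from 13.3 ± 1.78 to 28.0 ± 1.35 CPM, is shown for its matches to the E2F site. It had 4 matches, the most among the listed replication genes, and MCM7 had 2. E2F factors are known to switch on replication genes when cells enter S phase. Capitals mark TTTGGCGC, TTTCGCGC or TTTCCCGC on either strand in the 250 bases before the RefSeq start. The 4 matches overlap in 2 pairs and so lie at only 2 places.
MCM6 (chr2:135876444-135876693, - strand): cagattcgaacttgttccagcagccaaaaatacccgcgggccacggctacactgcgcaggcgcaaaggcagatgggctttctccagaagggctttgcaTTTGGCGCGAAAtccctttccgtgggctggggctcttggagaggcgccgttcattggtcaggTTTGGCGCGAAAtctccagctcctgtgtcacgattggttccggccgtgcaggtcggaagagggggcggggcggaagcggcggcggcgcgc
Of 30 listed replication genes with a RefSeq promoter, 11 had such a match, against 2.38% of all promoters. Those with a match include MCM6 (1.08), GINS2 (1.13), POLA1 (0.95), which rose, and TYMS and PCNA, which fell.

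Among regulators of the cycle, E2F1 rose from 29.3 ± 2.14 to 50.4 ± 3.26 CPM and CCND3 rose by 1.99, whereas the ubiquitin ligase subunit SKP2 (-1.52), CDK6 (-0.87) and RBL2 (-0.86) fell. In this list 7 of 20 members rose and 7 fell, with a median of -0.09 that was -0.16 without SOR replicate 1 and -0.14 without SOR+NOB replicate 1. Of 19 DNA repair genes 9 rose and 1 fell, PALB2 (-0.52), with a median of 0.34 against 1.35 in NOB against Control. EXO1 (1.63), BLM (1.38) and CHEK1 (0.97) are examples of those that rose. Of 20 tested p53 targets 10 rose and 5 fell, led by GADD45A (2.43), and the cell cycle inhibitor CDKN1A rose from 61.8 ± 3.74 to 94.0 ± 8.72 CPM. In the BCL2 family of apoptosis regulators 6 of 14 rose, such as BBC3 (0.73) and MCL1 (0.31), and 4 fell, such as BMF (-3.05) and BOK (-1.53). Of 13 histone genes 10 rose and none fell, with a median of 1.66, and HIST1H1C, a linker histone, went from 10.8 ± 1.11 to 129.9 ± 12.3 CPM. That list includes H1F0 (1.20), a linker histone whose expression does not depend on replication. Without SOR+NOB replicate 1, 9 histone genes rose and 1 fell. Replication-dependent histone mRNAs lack poly(A) tails, the library protocol names both poly(A) capture and rRNA removal, and the part of RNA capture in these values was not tested.

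Protein quality control genes rose. In the endoplasmic reticulum, chaperones fold secreted proteins and are induced together when unfolded protein accumulates. Of 24 tested members 21 rose and 1, ERO1B, fell (-0.36), with a median of 0.59. HSPA5, the central chaperone of this compartment, was at 985, 966 and 984 CPM in SOR and at 2028, 1878 and 1918 CPM in SOR+NOB (log2FC 0.99 ± 0.05, edgeR adjusted p = 2.20e-14). The groups did not overlap, and nobiletin without sorafenib gave a similar log2FC, 0.96 ± 0.05. DNAJB9 (1.92), HYOU1 (1.06), the sensor kinase ERN1 (0.87) and P4HB (0.87) rose too, and in NOB against Control 22 of the 24 rose with a median of 0.81.

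The HSPA5 promoter is shown as the best-known carrier of the endoplasmic reticulum stress element, with the match to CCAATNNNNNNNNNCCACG, on either strand, in capitals.
HSPA5 (chr9:125241344-125241593, - strand): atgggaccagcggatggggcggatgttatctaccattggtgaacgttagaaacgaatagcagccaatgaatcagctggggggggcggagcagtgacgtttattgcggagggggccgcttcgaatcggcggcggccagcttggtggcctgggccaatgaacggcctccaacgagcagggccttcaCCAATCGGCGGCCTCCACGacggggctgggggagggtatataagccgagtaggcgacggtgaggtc
This element occurred in 7 of 23 listed chaperone genes with a RefSeq promoter and in 0.0806% of all promoters. The 7 include HSP90B1 (0.55), CALR (0.59), CRELD2 (1.11) and XBP1 (0.43), and also ERO1B. The heat shock element, GAANNTTCNNGAA or TTCNNGAANNTTC on either strand, lay in 1 of 16 heat shock promoters (0.439% of all). That promoter belongs to HSPA8, which fell (-0.66).

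The integrated stress response did not move as a block. Of 28 tested ATF4 targets and regulators 12 rose and 10 fell, with a median of 0.00 that ranged from -0.055 to 0.061 with 1 library left out. GDF15, a hormone that suppresses appetite and is secreted under stress, was at 179, 193 and 182 CPM in SOR and at 1795, 2130 and 1984 CPM in SOR+NOB (log2FC 3.42 ± 0.06, edgeR adjusted p = 3.24e-21). PPP1R15A, which reverses the translation block, was at 29.6, 29.8 and 25.5 CPM in SOR and at 199, 329 and 311 CPM in SOR+NOB, so its 3 SOR+NOB libraries differed among themselves but none overlapped SOR. ATF4 itself averaged 509.7 ± 17.91 and 519 ± 40.0 CPM with overlapping groups (edgeR adjusted p = 0.671). DDIT3 (0.42), TRIB3 (0.74) and asparagine synthetase ASNS (1.26) rose, while the cystine importer SLC7A11 (-1.17), the serine synthesis enzyme PHGDH (-1.02) and CBS (-1.78) fell. CHAC1, a glutathione-degrading enzyme, had 22 counts in SOR and 0 in SOR+NOB, at least 7.57-fold lower.

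Cytosolic quality control showed more uniform directions. Of 17 heat shock genes 13 rose and 3 fell, with a median of 0.74 against -0.25 in NOB against Control. HSPA1A rose from 26.6 ± 0.495 to 80.3 ± 17.1 CPM, although it has a near-identical copy, HSPA1B, and its share of their reads is uncertain. The co-chaperone DNAJB1 rose from 94.9 ± 5.77 to 199 ± 15.4 CPM, and DNAJA1 (-1.08), HSPA8 (-0.66) and HSPD1 (-0.43) fell. Of 31 proteasome subunits 24 rose and 2 fell, PSMB5 (-0.37) and PSMB7 (-0.30), with a median of 0.59. PSMD14 (1.17), PSMD13 (1.11) and PSMD2 (1.02) of the regulatory particle were among those that rose. Autophagy and lysosome genes rose in 18 of 28 and fell in 3, with a median of 0.38 against -0.13 without sorafenib, and the cargo receptor SQSTM1 rose from 147 ± 6.44 to 273 ± 8.80 CPM. Of 20 cytosolic aminoacyl-tRNA synthetases, which load tRNAs with amino acids, 17 rose, VARS by 1.44, and QARS (-0.48) and IARS (-0.84) fell.

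NRF2, a transcription factor of the oxidant response, rose as an mRNA (NFE2L2, 1.53). The list of NFE2L2 and its targets was divided, with 11 of 24 higher, NFE2L2 among them, and 10 lower. The median was 0.006, and members ranged from -2.39 to 1.56. AKR1C1 (-1.56), AKR1C2 (-1.50), NQO1 (-0.29) and HMOX1 are examples of those that fell. AKR1C genes are close copies, which makes the split of their reads uncertain.

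Clock genes showed large changes in the negative limb. NR1D1 and the PER and BHLHE proteins repress the activators CLOCK and ARNTL or the genes these drive, and RORA activates ARNTL. NR1D1 was at 17.6, 15.4 and 16.3 CPM in SOR and at 247, 249.5 and 252 CPM in SOR+NOB (log2FC 3.92 ± 0.10, edgeR adjusted p = 5.42e-19). BHLHE40 rose from 14.7 ± 1.34 to 143.5 ± 10.47 CPM and PER1 from 21.2 ± 1.71 to 139 ± 20.8 CPM, neither with overlap between the groups. PER2 was at 47.4 ± 2.56 and 53.6 ± 7.14 CPM with overlap and was not called (edgeR adjusted p = 0.0834), but was called without SOR+NOB replicate 1 (0.26, edgeR adjusted p = 0.00139). ARNTL rose from 3.52 ± 0.657 to 9.36 ± 2.44 CPM, while RORA fell from 45.5 ± 2.31 to 24.6 ± 1.77 CPM and CLOCK from 40.8 ± 2.34 to 22.5 ± 2.91 CPM. In all, 9 of 17 tested clock genes rose and 5 fell, with a median of 0.54 (0.90 with DESeq2 and 0.99 without a filter), against 1 higher and 8 lower with a median of -0.45 for nobiletin without sorafenib. For NR1D1 that effect was -0.80 and the interaction 4.73 ± 0.14. The E-box CACGTG lay in the windows of 5 of 18 clock genes with a RefSeq promoter, against 6.49% of all promoters. Among these, PER1 and BHLHE40 rose, TEF had a log2FC of -1.64, and BHLHE41 and CIART were not tested.

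Inflammatory genes of the NF-kB list rose in 13 of 20 tested members and fell in 3, with a median of 1.18, against -0.67 in NOB against Control. RELB, an NF-kB subunit, was at 8.40, 9.94 and 9.95 CPM in SOR and at 34.5, 51.5 and 44.1 CPM in SOR+NOB (log2FC 2.21 ± 0.14). NFKB2 (2.03) and the feedback inhibitors TNFAIP3 (1.24) and NFKBIA (1.07) rose, and the adhesion molecule ICAM1 rose from 45.1 ± 2.21 to 97.6 ± 15.1 CPM. The members that fell are CCL20 (-0.76), NFKBIZ (-0.75) and SOD2 (-0.36). IL11, a cytokine of the IL6 family, went from 0.741 ± 0.232 to 15.7 ± 1.10 CPM. Interferon response genes split, with 9 of 20 higher, led by IRF1 (2.33), and 5 lower, such as IFIT1 (-1.28) and IFIT3 (-1.27). Of 15 genes of MHC class I and antigen loading 5 rose and 4 fell. Among 23 epithelial, mesenchymal and matrix genes 12 rose and 9 fell, and TIMP1, an inhibitor of matrix proteases, rose from 3.72 ± 0.296 to 34.9 ± 0.518 CPM, while the laminins LAMA5 (-1.34) and LAMC1 (-1.26) fell.

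**Figure D4:**
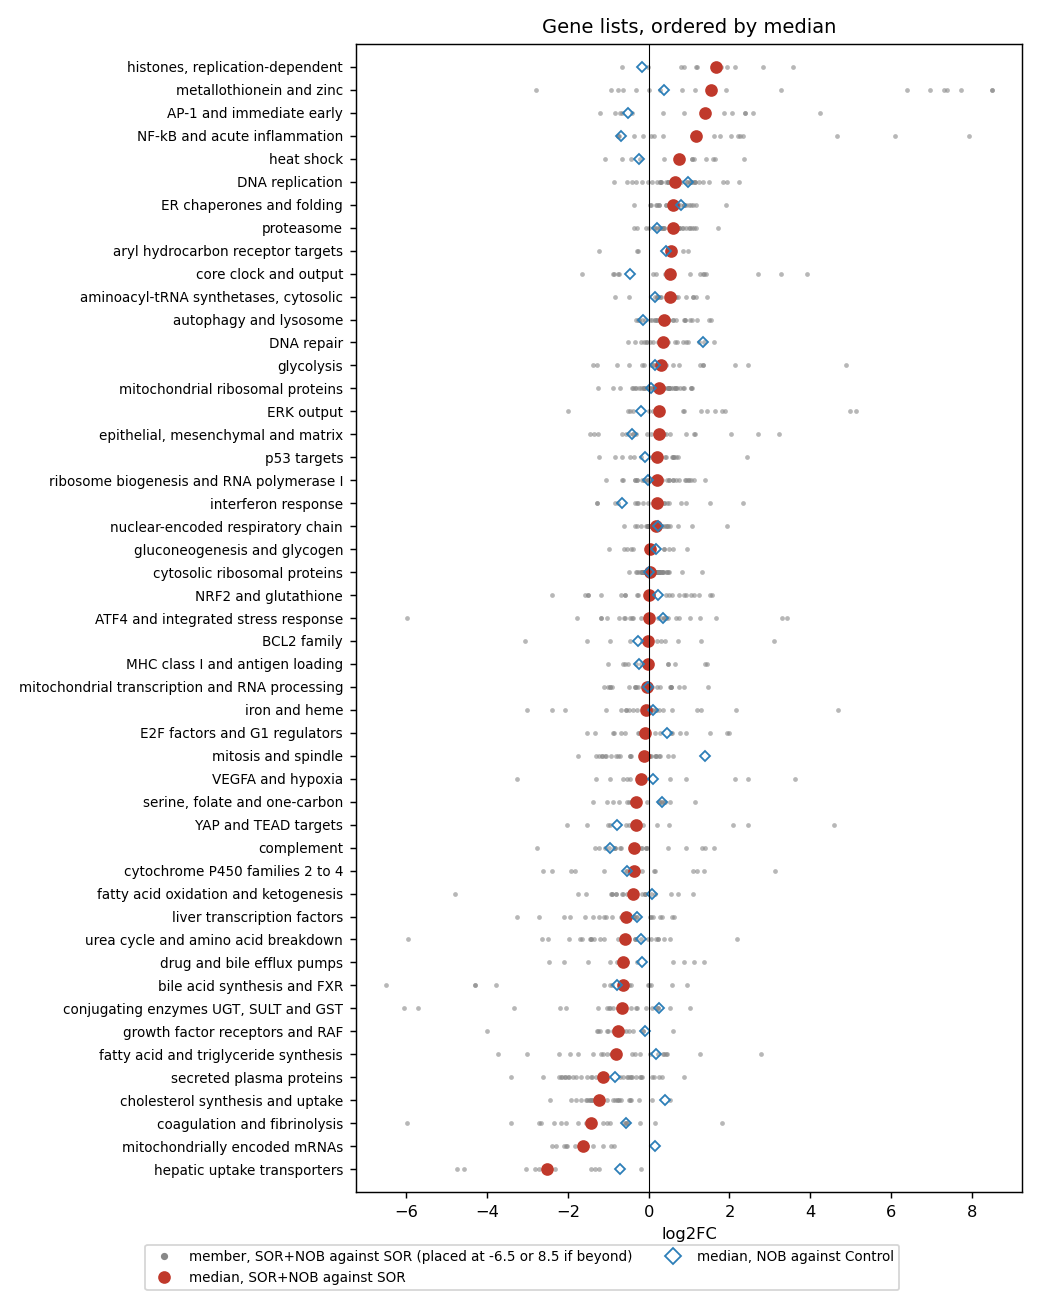
log2FC of the tested members of 49 gene lists for SOR+NOB against SOR (grey points), with the list median (red circle) and the median of the same genes in NOB against Control (open blue diamond), ordered by the first median. Hepatic uptake transporters and mitochondrially encoded mRNAs stand at the bottom and the histone and metallothionein lists at the top; for mitosis, NF-kB and cholesterol genes the medians lie on opposite sides of 0.

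In each list of liver functions more mRNAs fell than rose in SOR+NOB. Of 36 tested plasma protein genes 31 fell and 3 rose, with a median log2FC of -1.12, and of 21 coagulation genes 17 fell and 2 rose, with a median of -1.44. ALB, the gene of albumin, was at 20790, 20660 and 21750 CPM in SOR and at 9745, 7877 and 7821 CPM in SOR+NOB (log2FC -1.31 ± 0.06, edgeR adjusted p = 6.28e-14). All SOR+NOB libraries lay below all SOR libraries but above Control, which averaged 6428 CPM. AFP, the fetal counterpart of albumin, fell by 1.99 on the log2 scale, transferrin TF by 2.08, APOA1 by 1.39 and transthyretin TTR by 1.13. Haptoglobin, HP, was at 182 ± 12.1 and 199 ± 15.5 CPM and was not called (edgeR adjusted p = 0.0737), although nobiletin without sorafenib lowered it (log2FC -2.19). IGFBP1 (0.87), APOC1 (0.33) and ORM2 (0.25) rose, the last of these and APOC1 with calls lost without SOR replicate 2. HP was called without SOR+NOB replicate 1 (0.16, edgeR adjusted p = 0.00503).

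Fibrinogen beta, FGB, fell from 1491 ± 69.4 to 554 ± 26.7 CPM, the clotting factor F11 from 79.2 ± 3.08 to 17.7 ± 2.25 CPM and kininogen KNG1 with a log2FC of -3.41. Of 22 complement genes 11 fell and 4 rose, among them C5 (1.62) and the regulator CD55 (1.40). Of 24 tested liver transcription factors 17 fell and 4 rose, with a median of -0.56. HNF4A, which drives many hepatocyte genes, was at 486, 480 and 475 CPM in SOR and at 176, 224 and 215 CPM in SOR+NOB (log2FC -1.23 ± 0.06). NR2F1 (-2.71), PROX1 (-1.57) and the bile acid receptor NR1H4 (-1.11) fell, and TBX3 (0.57), FOXA2 (0.32) and FOXA3 (0.27) rose, of which FOXA3 lost its call without SOR replicate 1 or SOR+NOB replicates 2 or 3.

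Bile acid synthesis included the gene with the steepest loss. CYP7A1, the rate-limiting enzyme of the classical route, had 896 counts in the 3 SOR libraries, 12.4 to 15.6 CPM in each, and 0 in the SOR+NOB libraries, at least 308-fold lower against a floor of 3 counts over the group. Control had 111 counts and NOB 41. The steroid reductase AKR1D1 was at 107, 91.7 and 103 CPM in SOR and at 4.01, 6.35 and 4.85 CPM in SOR+NOB (log2FC -4.29 ± 0.12). CYP8B1, which sets the ratio of bile acid types, fell from 17.1 ± 1.10 to 0.905 ± 0.694 CPM, and KLB, the coreceptor for FGF19, fell too (-3.77). In the list 10 of 15 members fell and 2 rose, BAAT (0.95) and HSD3B7 (0.57), with a median of -0.64.

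Genes for the uptake and conversion of drugs and nutrients fell. None of 10 tested hepatic uptake transporters rose and 9 fell, with a median of -2.52, for example SLC22A9 (-2.80) and SLCO2B1 (-1.42). Conjugating enzymes fell in 14 of 23 members and rose in 2. GSTA1, a glutathione transferase, was at 32.0, 32.9 and 33.0 CPM in SOR and at 0.220, 0.601 and 0.589 CPM in SOR+NOB (log2FC -6.05 ± 0.27), and shares long stretches with GSTA2 (-5.70), so the split between them is uncertain. In cytochrome P450 families 2 to 4, 8 of 16 members fell, such as CYP3A7 (-2.40), and 3 rose, led by CYP2S1 (3.12). Of 12 efflux pumps 8 fell, such as ABCG8 (-2.47), and 4 rose, among them ABCB1, the multidrug pump that exports many cancer drugs, from 71.9 ± 2.71 to 133 ± 8.44 CPM and ABCC1 from 62.8 ± 2.61 to 163 ± 4.16 CPM. CYP1A1, the classical target of the aryl hydrocarbon receptor, was at 1.52 ± 0.173 and 1.28 ± 0.131 CPM and was not called (edgeR adjusted p = 0.355), whereas nobiletin alone took it from 3.20 to 29.6 CPM on average (interaction -3.46 ± 0.28). In that list 3 of 7 members rose and 1 fell.

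Amino acid breakdown fell in 17 of 27 members and rose in 4, with a median of -0.60. MAT1A (-1.98) and GLUD1 (-1.64) fell, and ARG2 rose (2.18). Other large falls outside these groups were RBP2, a retinol carrier (-5.11), SYT15 (-4.51), the acyl-CoA synthetase ACSM2A (-4.39), which has a close copy in ACSM2B, the secreted ANGPTL1 (-4.01) and UNC93A (-3.79). FO681492.1, a locus with no descriptive name in the files, fell too (-4.27).

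Most cholesterol synthesis genes fell with nobiletin on sorafenib, and most rose with nobiletin alone. Of 27 tested cholesterol synthesis and uptake genes 24 fell and 1, SCAP, rose (0.52), with a median log2FC of -1.23, while in NOB against Control 18 rose and 3 fell with a median of 0.40. The interaction was called negative in 25 of the 27. SQLE, which oxidises squalene, was at 229, 224 and 225 CPM in SOR and at 59.8, 60.2 and 59.8 CPM in SOR+NOB (log2FC -1.92 ± 0.05, edgeR adjusted p = 6.36e-18), while Control averaged 88.4 CPM and NOB 157 CPM. LSS (-2.44), ACAT2 (-1.81) and HMGCS1 (-1.45) fell, as did SREBF2, their main activator (-0.74). A sterol regulatory element, TCACNCCAC on either strand, was found in 1 of 21 listed genes with a RefSeq promoter, SREBF2, and in 0.875% of all promoters.

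Of 24 fatty acid and triglyceride genes 15 fell and 7 rose, with a median of -0.81, while in NOB against Control 11 rose, 6 fell and 7 were not called, with a median of 0.18. SCD, which makes monounsaturated fatty acids, was at 1582, 1621 and 1606 CPM in SOR and at 745, 712 and 739 CPM in SOR+NOB (log2FC -1.13 ± 0.04), and nobiletin alone raised it by 1.21. DGAT2 (-3.74) and GPAM (-3.01) of triglyceride assembly fell, and AGPAT2 (2.77) and LPIN1 (1.28) rose. Fatty acid oxidation genes fell in 16 of 24 and rose in 3, with a median of -0.39. PPARA, a receptor that drives this pathway, fell (-1.75), whereas CPT1A, which admits fatty acids to mitochondria, rose from 37.6 ± 2.31 to 80.7 ± 1.83 CPM.

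Of 24 glycolysis genes 13 rose and 4 fell, with a median of 0.29. The glucose transporter SLC2A1 (2.14), PKM (1.35), the muscle and tumour form of pyruvate kinase, and ENO2 (1.28) rose. SLC2A2 (-1.27), PKLR (-0.49) and PFKFB1 (-0.77), which are forms typical of liver, fell. In gluconeogenesis and glycogen 5 of 13 rose and 4 fell, with G6PC (-0.98) and PCK1 (-0.44) among those that fell. Serine and folate enzymes rose in 8 of 19 and fell in 10, with a median of -0.30.

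Mitochondrial transcripts changed by class. The mitochondrial genome is read as long precursors from which mRNAs, rRNAs and tRNAs are cut. All 13 mitochondrially encoded mRNAs fell, with log2FC of -2.38 to -0.86 and a median of -1.63, against a median of 0.15 in NOB against Control. MT-CO3, which belongs to respiratory complex IV, was at 8397, 7742 and 9032 CPM in SOR and at 1661, 1597 and 1565 CPM in SOR+NOB (log2FC -2.38 ± 0.06, edgeR adjusted p = 4.75e-19). MT-ND4, of complex I, was at 13880, 13310 and 14490 CPM in SOR and at 9974, 6384 and 6657 CPM in SOR+NOB, so SOR+NOB replicate 1 was the highest of its group and still below every SOR library. The 2 ribosomal RNAs rose, MT-RNR1 by 0.76 and MT-RNR2 by 0.39 on the log2 scale. Of the 32 tested genes of the mitochondrial chromosome 29 fell.

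As a share of all counts, mitochondrial mRNA was 8.72% ± 0.369 in SOR and 3.88% ± 0.698 in SOR+NOB, mitochondrial tRNA 0.0492% ± 0.00209 and 0.0194% ± 0.000825, and mitochondrial rRNA 1.94% ± 0.0875 and 2.91% ± 0.18. Small nuclear and nucleolar RNA rose as a share from 0.00681% to 0.0128%, and nuclear rRNA was 0.000106% and 0.0022%. None of these shares overlapped between the groups, and the exact two-sided permutation test gave p = 0.1 for each, the smallest that 3 against 3 allows. The library protocol names both poly(A) capture and rRNA removal, so how far such RNAs without poly(A) tails were retained is not known, and its part in these shares was not tested.

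**Figure D5:**
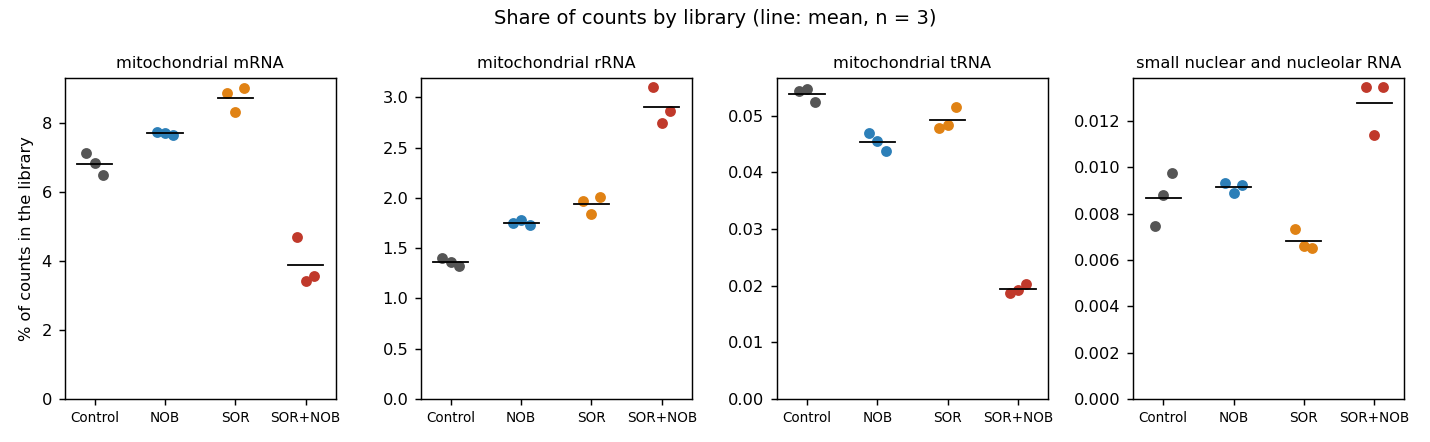
Share of the counts of each library (points, with the mean of 3 as a line) that fell on mitochondrial mRNA, mitochondrial rRNA, mitochondrial tRNA, and small nuclear and nucleolar RNA, in % of all counts. The SOR+NOB libraries are the lowest in mitochondrial mRNA and tRNA and the highest in mitochondrial rRNA and in small nuclear and nucleolar RNA.

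Nuclear genes for mitochondria did not follow. Of 35 tested nuclear-encoded respiratory chain genes 16 rose and 3 fell, for example NDUFV2 (1.93) and COX7A2 (1.07), with a median of 0.18 that was 0.06 without SOR replicate 2 and 0.046 without SOR+NOB replicate 2. Mitochondrial ribosomal proteins rose in 28 of 53 and fell in 8, with a median of 0.27. Factors of mitochondrial transcription and RNA processing split, with 9 of 23 higher, among them the polymerase POLRMT (0.55) and MTERF3 (1.47), and 9 lower, among them TRMT10C (-1.11), a subunit of the nuclease that cuts the tRNA ends, the helicase TWNK (-1.01) and TFB1M (-0.90). In the cytosol, 20 of 74 ribosomal proteins rose and 9 fell with a median of 0.03 that ranged from -0.02 to 0.10 with 1 library left out, and 18 of 36 ribosome biogenesis genes rose and 5 fell with a median of 0.21.

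Counts of list members were also taken without SOR+NOB replicate 1. Cytosolic ribosomal proteins then rose in 34 of 74 members in place of 20, plasma proteins in 5 of 36 in place of 3, and conjugating enzymes in 4 of 23 in place of 2. Mitosis genes then fell in 13 of 30 and replication genes rose in 25 of 34, mitochondrial mRNAs fell in 13 of 13 and cholesterol genes in 25 of 27.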

How the data were processed

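RNA-seq of HepG2 cells gave 12 libraries, 3 per group, with 17945656 to 25669823 counts each. Per the submitters' processing notes, HISAT2 2.0.5 aligned the reads (GRCh38) and featureCounts 1.5.0-p3 counted them. The deposited count table holds raw counts. A deposited table of the authors holds FPKM of the same libraries and served only as an alternative. Not given in the sources used here are the strand setting, how reads with several hits were handled, any filters, and which of poly(A) capture and rRNA removal was used.

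In R 4.3.3, edgeR 4.0.16 fitted 1 mean per group to the counts of all 12 libraries (filterByExpr, TMM, robust quasi-likelihood, 8 residual degrees of freedom, a common coefficient of biological variation of 8.44%). Of 58735 genes 41620 were not tested, 25142 of them with no count. Contrasts were SOR+NOB against SOR, NOB against Control and their difference, the interaction. The Benjamini-Hochberg adjustment covered every tested gene, and a gene was called at an adjusted p under 0.05. Shares of counts were compared by exact permutation. The script was checked on simulated data. Floors are 3 counts over the 3 libraries of a group, and both floors and intervals reflect counting error alone.

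The comparison, the 49 gene lists and the rule for named genes were chosen with earlier results of these data known. By that rule the text names the called protein-coding genes with the 12 largest rises and the 12 largest falls, with at least 5 CPM on average in the 6 libraries and groups that did not overlap, and the 6 largest interactions each way under these conditions. It adds up to 5 members of each list with the smallest p, members that moved against the majority of their list, and a panel. HSP90B1, CALR, CRELD2, XBP1, GINS2, POLA1, RELB and SREBF2 were added for their list or for a motif, after their values were seen. Some genes that the rule names are not reported here. Promoter sequences are RefSeq's, on GRCh38.p14. Alternatives were limma 3.58.1 on log2 FPKM with pseudocounts of 1 and 0.1 (genes averaging 0.5 FPKM or more), DESeq2 1.42.0, RLE scaling, all genes with a count, protein-coding genes only, a replicate block, only the 6 compared libraries, a minimum of 2 CPM, and leaving out each library. Replicate numbers did not pair libraries: over 18 pairs with the same number, deviations from the group mean correlated with r of -0.05 to 0.04, and 2 of 12 libraries correlated best with their own number. Python 3.11.15 with matplotlib 3.10.9 drew the figures.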

Additional observations from a re-analysis of the deposited data

Results flagged for a closer look

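Nobiletin effects that differed with and without sorafenib were singled out by the interaction term of the edgeR fit (adjusted p under 0.05 over all tested genes), which was called in 8908 genes. The 6 largest positive interactions under the rule for named genes were those of HRH3 (9.54), MT1X (6.69), PCLO (6.6), CYR61 (6.42), HAMP (6.36) and IL11 (6.19), as log2FC of the nobiletin effect with sorafenib minus that without it. CYR61 was at 49.5 CPM in Control, 13.9 in NOB, 5.03 in SOR and 120.0 in SOR+NOB, and IL11 at 8.03, 2.24, 0.741 and 15.7 CPM, so for both the nobiletin effect ran in opposite directions. HRH3 had 3 counts in Control, 1 in NOB and 2 in SOR, and its fitted value depends on the prior count.

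The 6 largest negative interactions were those of CYP7A1 (-9.78), RBP2 (-8.07), FGFR2 (-4.95), PGLYRP2 (-4.82), DYSF (-4.19) and UNC93A (-4.15). CYP7A1 had 0 counts in SOR+NOB, so its fitted value is no bound and depends on the prior count. RBP2 averaged 0.366 CPM in Control and 2.90 in NOB, against 10.9 in SOR and 0.298 in SOR+NOB. PGLYRP2, a peptidoglycan-cleaving enzyme secreted by liver, went from 0.140 to 0.816 CPM without sorafenib and from 16.1 to 3.24 CPM with it, and DYSF, a membrane repair protein, from 1.09 to 6.995 and from 16.0 to 5.57 CPM.

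In the fixed panel, 9 genes given here were called in opposite directions in SOR+NOB against SOR and in NOB against Control. The interaction was positive for NR1D1 (4.73), GDF15 (3.89), HSPA1A (2.82), CPT1A (2.38) and SQSTM1 (1.30), which rose with sorafenib and fell without it. It was negative for MKI67 (-2.66), SCD (-2.34), APOA1 (-1.66) and MT-ND4 (-1.31), which fell with sorafenib and rose without it. With 3 libraries a group, no library was tested as an outlier.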

How the results depend on the processing

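SOR+NOB against SOR had 10049 to 11222 called genes when 1 library was left out and 8854 to 11109 under the other alternatives, and no gene called in both was called with the opposite sign in any of them. With a replicate block 10650 genes were called. NOB against Control had 5463 to 8325 called genes and the interaction 7593 to 9807 over all alternatives. Genes called at least 2-fold higher numbered 741 and at least 2-fold lower 1094 with limma on log2(FPKM + 1), and 1153 and 1680 with protein-coding genes only, which tests fewer genes. A pseudocount shrinks the differences of low genes. With mitochondrial genes left out of the total, the difference in the share of counts was -1.25 percentage points for albumin and -0.0806 for long intergenic noncoding RNA, against -1.08 and -0.0584. List medians near 0 changed sign, among them those of E2F and G1 regulators 0.029 and 0.042 with limma at pseudocounts of 1 and 0.1, the BCL2 family 0.098 with DESeq2, 0.083 without a filter and -0.067 to 0.112 with a library left out, NRF2 targets -0.026 without a filter, -0.049 with protein-coding genes only and -0.034 without SOR replicate 2, and gluconeogenesis -0.01 with protein-coding genes only. Further from 0, limma on log2(FPKM + 1) gave medians closer to 0, mostly over fewer genes. These were 0.787 for the metallothionein list, 0.499 for 14 NF-kB genes in place of 20, and -1.53 for 6 hepatic uptake transporters in place of 10. Histones had 1.023, DNA repair 0.177, glycolysis 0.161 and the nuclear-encoded respiratory chain 0.077. With a pseudocount of 0.1 the NF-kB median was 0.696, that of uptake transporters -1.857 and that of the metallothionein list 1.554. ATF4, which was not called, was at -0.004 without a filter and -0.028 with protein-coding genes only. Its log2FC was -0.002 without SOR replicate 1, -0.007 without SOR replicate 2 and -0.017 without SOR+NOB replicate 2. It stayed positive when any other single library was left out. The cause of these changes was not tested. Among the genes named here, MAD2L1 and TPX2 lost their calls under 9 settings each, FOXA3 under 4, PCNA and APOC1 under 3, and DUSP6, ORM2 and CXCL3 under 1. The interactions given for single genes kept their calls under every alternative in which the gene was tested. With 3 libraries a group, differences below the spread between libraries were not detectable at this depth.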

Other observations

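Genes without protein products moved differently from coding genes. Of 12871 tested protein-coding genes 37.0% were higher and 31.8% lower in SOR+NOB than in SOR, with a median log2FC of 0.05. Of 881 long intergenic noncoding RNAs 101 were higher and 364, or 41.3%, lower (median -0.74), and of 1281 antisense genes 13% were higher and 31.3% lower (median -0.43), the latter with a strand setting that is not given in the sources used here. Small nucleolar RNAs, which guide rRNA modification, went the other way, with 20 of 39 higher and 3 lower. Level moved with these shares: of 4281 genes with the lowest mean CPM, up to 1.48, 13.7% were higher and 23.9% lower, and of 4279 genes with the highest, from 49.2, these shares were 43.4% and 34.8%; the part of level in the difference between gene classes was not tested.

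Beyond CYP7A1 some genes with at least 60 counts in SOR had none in SOR+NOB. CHRNA2, a subunit of nicotinic acetylcholine receptors, went from 172 to 0 counts, at least 59.1-fold lower, and CELF3, an RNA-binding splicing regulator, from 61 to 0, at least 21-fold lower. The mitochondrial tRNA gene MT-TS2 went from 83 to 0 counts, at least 28.5-fold lower. These genes were chosen after their values were seen.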
